A study of Mus musculus with 12 samples.

Results

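Expression of 9 genes was described here: the cohesin subunits *Smc1a*, *Smc3*, *Rad21* and *Stag2*, the splicing factors *Sf3b1*, *Sf3a3*, *U2af1* and *Srsf2*, and *Fubp1*. They were chosen by symbol from the 770 genes of the nCounter Mouse PanCancer Pathways panel, which counts RNA molecules with color-coded probes and without amplification, and all 9 were found. The panel was run on 5 *RBS* lesions, 4 control eyes and 3 Shh-MBs, each from a separate mouse, so the *p*-values below measure spread between animals. *RBS* mice (*Rax-creERT2::Ctnnb1(ex3) fl/+ SmoM2 fl/+*) received tamoxifen at E8.5 and 1 eye per mouse was taken at E18.5. In these mice the inducible Cre under the *Rax* promoter acts in retinal progenitors, stabilizes beta-Catenin by removing exon 3 of *Ctnnb1* and switches on *SmoM2*, an active form of the Hedgehog transducer Smo. Control eyes came from E18.5 *Ctnnb1(ex3) fl/+ SmoM2 fl/+* mice, which lack the Cre driver but carry the floxed alleles of both genes. The labels give tamoxifen for *RBS* mice and do not say whether control embryos were exposed. According to the authors, tamoxifen was injected into pregnant females, and control eyes of their protein data came from littermates. Whether the control eyes used here were littermates is not stated. If they were not exposed, a part of tamoxifen in the differences between these groups cannot be told apart from that of the alleles. Shh-MBs are hindbrain tumors, taken at an age of 14 days, from *hGFAP-cre::SmoM2 fl/+* animals, whose Cre acts in neural precursors and leaves *Ctnnb1* intact. Tissue, age and genotype all differ between Shh-MBs and eyes, so their parts in a difference cannot be told apart. Each sample was bulk tissue, where fewer cells of a type and less RNA per cell cannot be told apart.

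Cohesin is a ring that holds sister chromatids together from replication to mitosis and shapes chromatin loops in cells that no longer divide. SMC1A and SMC3 form the arms of the ring, RAD21 closes it, and STAG2 binds RAD21 and helps to load the complex onto chromatin. Splicing of pre-mRNA starts with the recognition of the 3' end of the intron, where U2AF1 reads the AG dinucleotide and U2 snRNP, with its SF3A and SF3B subcomplexes, settles on the branch point. SRSF2 is a serine and arginine rich protein that binds exonic enhancers and favors inclusion of the exon. FUBP1 binds single-stranded DNA of the far upstream element of *MYC* and also takes part in splicing. Genes for these proteins are recurrently mutated in human cancers. The data below are RNA levels and hold no information on mutations.

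*Smc1a*, *U2af1* and *Srsf2* were the members whose fall in *RBS* lesions passed the test (limma on log2 of the signal plus 1, adjusted *p* under 0.05 over all 770 genes) with all samples and after leaving out any 1 of them, and the 250 bases before their start sites are shown for that reason. Sequences are from RefSeq (GRCm38.p6), written 5' to 3' on the strand of the gene. The promoter table held 7 of the 9 genes, all but *Rad21* and *Stag2*, and 8 promoters in all because *U2af1* has 2 start sites there. Capitals mark matches to the motifs named after the sequences.
*Srsf2*, chr11:116853095-116853344, minus strand: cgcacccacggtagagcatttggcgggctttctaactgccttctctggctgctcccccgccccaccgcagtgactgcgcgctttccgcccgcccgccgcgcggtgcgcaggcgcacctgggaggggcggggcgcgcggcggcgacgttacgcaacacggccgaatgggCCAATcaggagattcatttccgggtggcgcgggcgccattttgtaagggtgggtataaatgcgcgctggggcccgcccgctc
*U2af1*, chr17:31658765-31659014, minus strand: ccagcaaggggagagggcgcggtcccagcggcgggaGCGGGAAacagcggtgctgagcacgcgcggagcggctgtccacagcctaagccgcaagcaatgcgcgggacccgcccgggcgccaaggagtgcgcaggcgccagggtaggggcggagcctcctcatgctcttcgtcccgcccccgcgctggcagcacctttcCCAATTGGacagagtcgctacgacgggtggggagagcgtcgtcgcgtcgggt
*Smc1a*, chrX:152016178-152016427, plus strand: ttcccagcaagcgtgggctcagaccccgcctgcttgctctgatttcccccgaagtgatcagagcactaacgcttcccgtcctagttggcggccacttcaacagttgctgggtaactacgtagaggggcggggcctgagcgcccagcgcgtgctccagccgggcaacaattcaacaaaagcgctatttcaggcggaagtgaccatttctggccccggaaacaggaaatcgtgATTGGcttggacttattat

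All 3 sequences hold the CCAAT box (the letters CCAAT, which read as ATTGG where the box lies on the opposite strand). It starts 82 bases before the start site of *Srsf2* and 19 bases before that of *Smc1a*, and in *U2af1* matches on both strands, 52 and 49 bases before the start site, overlap in 1 run. *Fubp1* also held the box, 16 bases before its start site, and 37.41% of all 32851 promoters of the table did. The E2F motif TTCCCGC lay, as its reverse complement, 214 bases before the start site of *U2af1* and, in *Smc1a*, began 38 bases beyond the start site, outside the stretch shown. It was present in 4.6% of all promoters. The ETS motif CCGGAAG was found, on the other strand, in *Sf3a3* only among the 7 genes (8.858% of all promoters). No member promoter matched the GLI motif GACCACCCA, present in 0.2527% of all promoters, the TCF/LEF motif CTTTGAA (5.135%), the CRE motif TGACGTNA (2.931%) or the E-box motif CACGTG (7.15%). All motifs were searched on both strands over the 300 bases of the table. A match describes letters and was not tested as a binding site.

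Signal is given on the linear scale as deposited, and the geometric mean of 20 reference genes, a set inferred from this equality, was 638 in every sample. The depth was 590200 to 716684 counts above background in control eyes, 335392 to 637795 in lesions and 541092 to 707210 in Shh-MBs. The fewest counts behind any member value were 311 (*Sf3a3* in *RBS* 1), where counting alone gives an error of 5.67% beside a coefficient of variation of 5.16% between the 5 lesions. Counting error is smaller for the genes with more signal. None of 14 eye markers listed for a check of the tissue was among the 770 genes, so the eye identity of the samples was not checked. One gene alone made up 25.3 to 31.0% of a control eye's signal, 11.6 to 13.6% of a lesion's and 28.4 to 31.3% of a Shh-MB's. *Sf3a3* is itself one of these 20 genes and has a weight of 5% in the scale.

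On the deposited scale the members varied little across the 12 samples. Their range from the lowest to the highest sample had a median of 0.50 on the log2 scale, compared with 1.83 over all 770 genes and 1.01 over the 144 genes with at least the signal of the lowest member. *Stag2* and *Rad21* had the 8th and 9th smallest range of the panel (0.38 each), among its steadiest genes on this scale. With centring on the median, their mean differences between *RBS* lesions and Shh-MBs alone were -0.95 and -0.88. *Smc3* had the widest range of the members (0.91) and the largest SD of log2 signal within each of the 3 groups (0.17 in control eyes, 0.17 in *RBS* lesions, 0.32 in Shh-MBs).

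**Figure D1:**
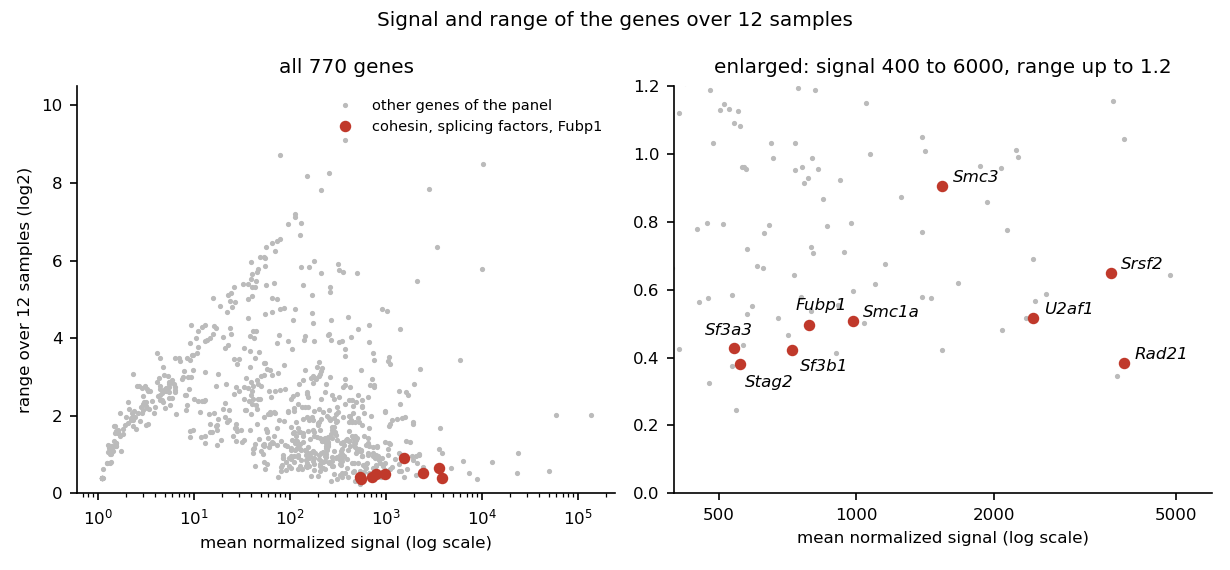
Range over the 12 samples (log2, vertical) against mean normalized signal (horizontal, log scale) for each gene of the panel, with the 9 members in red and an enlarged view on the right. Signal depends on the probe as well as on the RNA, so its order between genes is not an order of abundance. The members lie along the lower edge, from 0.38 for *Stag2* to 0.91 for *Smc3*.

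*RBS* lesions were compared with control eyes of the same age to see how far the joint activation of both pathways goes along with a change in these basic factors. Signals of *Smc1a*, *Sf3a3*, *U2af1* and *Srsf2* fell by a modest amount in *RBS* lesions, to between 0.773 and 0.836 times the level of control eyes. *Smc3*, *Rad21*, *Stag2*, *Sf3b1* and *Fubp1* did not pass the test. Thus 4 of 9 members were lower and 0 higher, compared with 18.2% of all genes lower and 33% higher (51.2% in either direction). The methods' test with step-down Bonferroni adjustment called 0 of the 9 members in this comparison. The median log2 difference was -0.24 over the members and 0.17 over all genes, and the median size of the difference was 0.24 against 0.47.

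Among cohesin subunits, *Smc1a* signal was 1171, 1152, 1090.1 and 1001 in control eyes and 943, 838, 839.5, 862 and 824 in *RBS* lesions. Every lesion lay below every control eye, and the means were 1104 ± 76.7 (SD, n = 4) and 861 ± 47.5 (SD, n = 5). The log2 difference was -0.36 (SE 0.0837, adjusted *p* = 0.00626). *Smc1a* and *Stag2* lie on the X chromosome. Among samples with the Y-linked gene *Uty* above a signal of 100, control 3 and *RBS* 3 had *Smc1a* signals within the range of the rest of their group and *RBS* 1 was the highest lesion. For *Stag2*, control 3 (536) was the lowest control eye, while *RBS* 1 and 3 (549 and 518) lay within the range of the other lesions. All 3 Shh-MBs were also above a *Uty* signal of 100.

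*Smc3*, the partner of *Smc1a* in the ring, had 1784, 2010.3, 1515 and 1684 in control eyes and 1207, 1640.2, 1553, 1453 and 1526 in *RBS* lesions. The groups overlapped, with the low value of *RBS* 1 standing below all others, and the difference was -0.24 (95% confidence interval -0.52 to 0.027, adjusted *p* = 0.125). An equal fall of both arms of the ring is therefore within the interval for *Smc3*. The log2 ratio of *Smc1a* to *Smc3* within a sample, which a single scaling factor per sample leaves unchanged, differed by -0.11 (exact permutation *p* = 0.444).

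*Rad21*, the closing subunit, had 3779.8, 3922, 3775 and 3389 in control eyes and 3929.5, 3662, 3772, 4425 and 3634 in *RBS* lesions. The ranges overlapped in part, with *RBS* 1 and 4 above every control eye and control 4 below every lesion, and the difference was 0.062 (interval -0.14 to 0.27, adjusted *p* = 0.605). *Stag2*, the RAD21-binding subunit, had 618, 584, 536 and 583 in control eyes and 549, 532, 518, 585 and 474 in *RBS* lesions. These groups overlapped as well, with a difference of -0.13 (interval -0.33 to 0.072, adjusted *p* = 0.265). Of the 4 subunits, 1 thus passed the test, beside 51.2% of all genes. With centring on the median *Smc3* (adjusted *p* = 0.0307) and *Stag2* (0.0148) also passed as lower, among 354 genes called. With quantile normalization both passed as lower (0.00719 and 0.00141) and *Rad21* as higher (0.22 on the log2 scale, adjusted *p* = 0.0139), among 364.

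**Figure D2:**
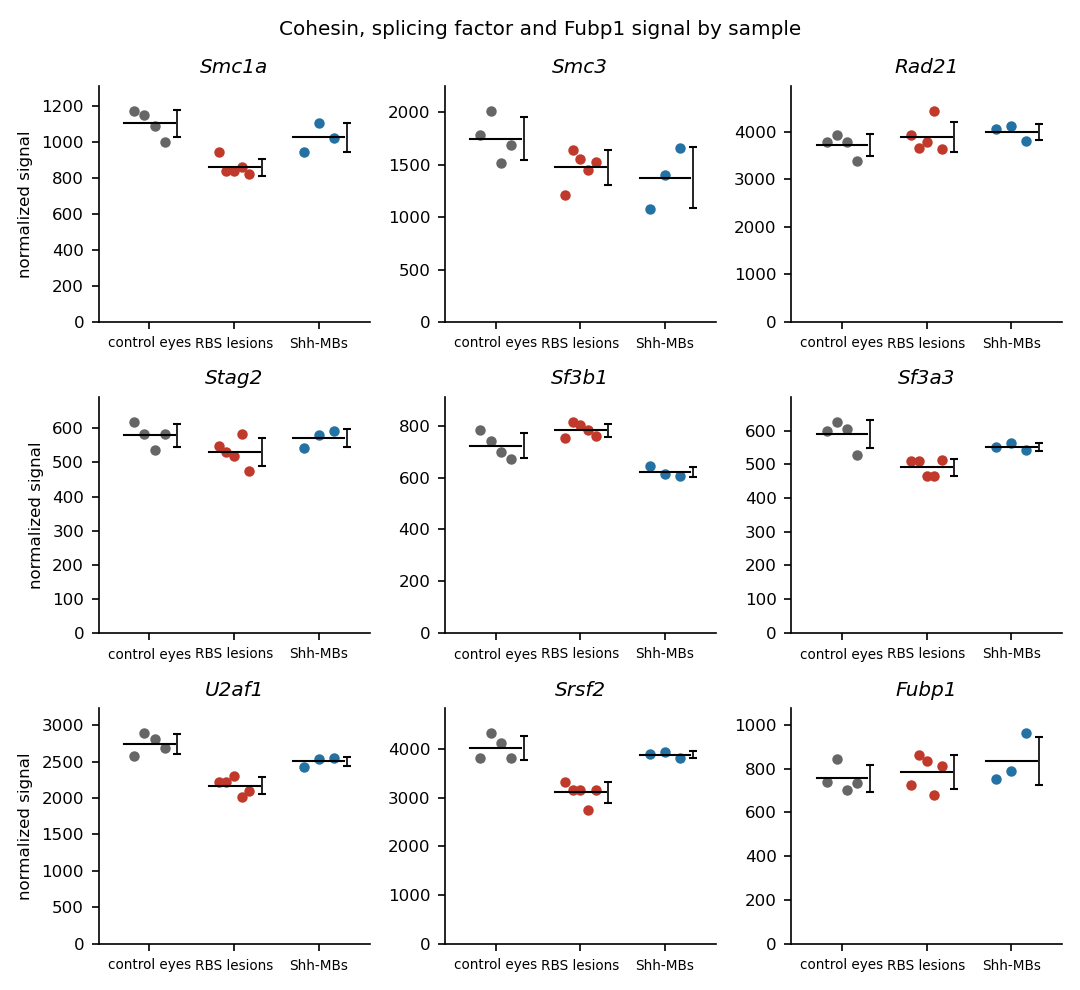
Normalized signal (linear scale from 0) of each member in every sample. Points are animals, horizontal lines are group means and the bars beside them are SD (control eyes n = 4, *RBS* lesions n = 5, Shh-MBs n = 3). For *Smc1a*, *Sf3a3*, *U2af1* and *Srsf2* each of the 5 lesions lies below each of the 4 control eyes.

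Of the splicing factors, *U2af1* and *Srsf2* fell side by side. *U2af1*, the reader of the 3' splice site, had 2581, 2887, 2802 and 2684 in control eyes and 2219, 2219, 2299, 2017 and 2095 in *RBS* lesions. Groups were separate, with means of 2739 ± 134 (SD, n = 4) and 2170 ± 113 (SD, n = 5). The log2 difference was -0.34 (SE 0.0783, adjusted *p* = 0.00606).

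*Srsf2*, the exon enhancer-binding factor, had 3813, 4324, 4119.5 and 3820.3 in control eyes and 3321, 3151, 3151, 2756 and 3169 in *RBS* lesions. Again the groups were separate, at 4019 ± 249 (SD, n = 4) and 3109 ± 210 (SD, n = 5), and *RBS* 4 was the lowest sample for both genes. The difference of -0.37 was the largest of the members on the deposited scale (SE 0.0864, adjusted *p* = 0.00606). With quantile normalization it was -0.23 and no longer passed (adjusted *p* = 0.0595). On the log2 scale the *U2af1* to *Srsf2* ratio was -0.55 ± 0.031 (SD, n = 4) for control eyes and -0.52 ± 0.069 (SD, n = 5) for lesions, a difference of 0.035 (exact permutation *p* = 0.381).

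For U2 snRNP, genes of both subcomplexes were measured. *Sf3a3*, a subunit of SF3A, had 599, 624.7, 606 and 528 in control eyes and 511, 509, 464, 464 and 512 in *RBS* lesions. The lowest control eye was above the highest lesion by a small margin, and the difference was -0.26 (SE 0.0841, adjusted *p* = 0.0285). This call was lost without any 1 of control 1, 2 or 3 or *RBS* 3 or 4 (adjusted *p* up to 0.0804), and the gene is one of those inferred to set the scale it was measured on. Scaled to the other 19 reference genes, an alternative chosen after seeing the data, it was -0.27 (adjusted *p* = 0.0257).

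*Sf3b1*, the SF3B subunit that contacts the branch point, had 783, 740.3, 698 and 674 in control eyes and 755, 815, 804, 784 and 761 in *RBS* lesions. Lesions *RBS* 2, 3 and 4 lay above the highest control eye and the other two within the control range, and the difference of 0.12 did not pass (interval -0.060 to 0.29, adjusted *p* = 0.254), with a sign that turned under other scalings (-0.095 with quantile normalization, -0.064 with centring on the median). The log2 ratio of *Sf3b1* to *Sf3a3* within a sample does not change with a single factor per sample. It was 0.39, 0.24, 0.20 and 0.35 in control eyes and 0.56, 0.68, 0.79, 0.75 and 0.57 in *RBS* lesions. Each lesion exceeded each control eye, and the difference of the means was 0.38 (exact permutation *p* = 0.00794, the smallest these group sizes allow). After Benjamini-Hochberg adjustment over the 15 ratio tests it was 0.119, so this difference did not pass the correction. Without any 1 sample it lay between 0.34 and 0.41.

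*Fubp1* had 739, 846, 701 and 734 in control eyes and 724, 863, 833, 681 and 814 in *RBS* lesions. Both groups covered nearly the same range, and the difference was 0.050 (interval -0.18 to 0.28, adjusted *p* = 0.707). *Rad21* and *Fubp1* likewise changed sign with the scaling (-0.12 to 0.22 and -0.17 to 0.050), whereas the differences of *Smc1a*, *U2af1*, *Srsf2* and *Sf3a3* kept their direction under each alternative tried. Of all genes, 43.4% had groups that did not overlap, as did these 4 of 9 members.

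**Figure D3:**
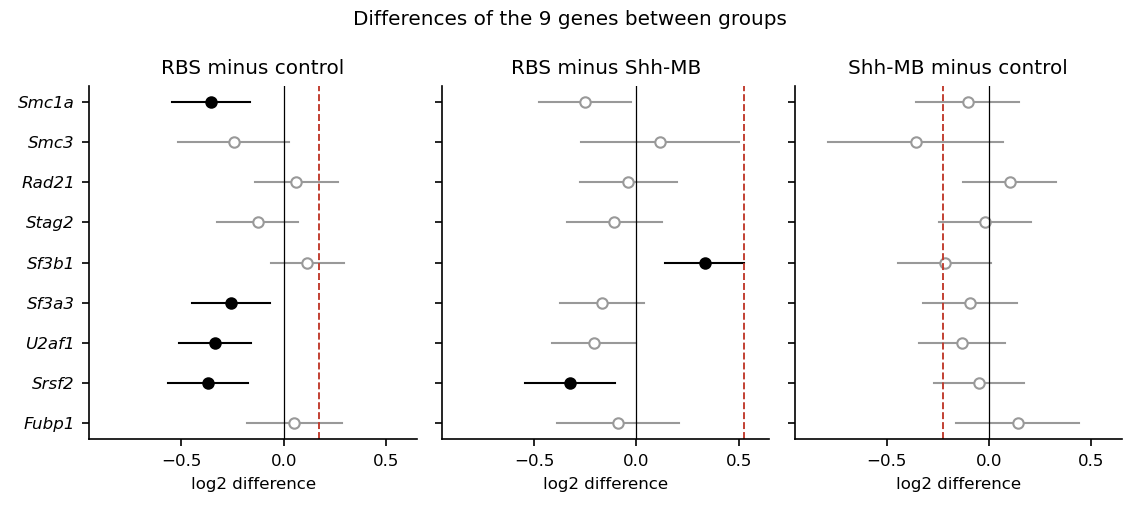
Differences of mean log2 signal (horizontal, with 95% confidence intervals from limma) of the 9 genes in the 3 comparisons. Filled black points have an adjusted *p* under 0.05 and open grey points do not, and the dashed red line is the median of all 770 genes. All 9 members lie left of that median in both comparisons of *RBS* lesions, and against Shh-MBs the signs of *Smc3* and *Sf3b1* depend on the scaling.

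Marker lists of dividing cells and of other cell types also differed between the groups. Over all genes, 18.2% passed as lower and 33% as higher in lesions than in control eyes. In Shh-MBs against control eyes the shares were 31.4% lower and 9.61% higher. Of 15 replication genes, 12 passed as lower in lesions than in control eyes (median log2 difference -1.10), and their summed signal was 9313 to 11421 in control eyes, 4811 to 5749 in lesions and 11556.5 to 13074 in Shh-MBs. For 11 mitosis genes, 6 of them lower and 1 higher in lesions than in control eyes, the sums were 1738 to 1892, 1269 to 1367 and 1610 to 1935. Of the 5 neuronal markers on the panel, 4 passed as higher in lesions than in control eyes, and the sum of the 5 was 555 to 722 in control eyes, 2224 to 2967 in lesions and 352 to 551 in Shh-MBs. The sum does not describe each gene, since 3 of the 5 passed as higher and 1 as lower in Shh-MBs than in control eyes. For 9 mesenchymal genes the sum was 25720 to 58212, 20058 to 36739.5 and 1480.5 to 2108. Of these, 3 passed as lower in lesions than in control eyes, and 8 as lower and 1 as higher in Shh-MBs than in control eyes. For 7 blood and immune genes it was 104 to 152, 208 to 284 and 135 to 256, with 4 higher in lesions and 1 higher in Shh-MBs than in control eyes. For *Gli1*, *Mycn* and *Sfrp1*, listed for cerebellar granule cells, it was 2451 to 3249, 1454 to 2184 and 7336 to 9329. All 3 passed as lower in lesions and as higher in Shh-MBs than in control eyes. No gene of these lists sat at the lowest value in every sample of a group. The part of cell composition in the members' differences was not tested.

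*RBS* lesions were next set against Shh-MBs, which share *SmoM2* but differ in tissue, age, Cre driver and the state of *Ctnnb1*. This comparison uses the same 5 lesions as the one above. *Sf3b1* was higher and *Srsf2* lower in *RBS* lesions, so 1 of 9 members was called in each direction, compared with 48.1% of all genes higher and 12.7% lower (60.8% in all). Groups did not overlap for 5 of 9 members (59.9% of all genes). The median difference was -0.11 over the members and 0.53 over all genes.

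*Srsf2* had 3895, 3947 and 3807 in Shh-MBs, all above the highest lesion at 3321. The log2 difference was -0.32 (SE 0.0950, adjusted *p* = 0.0177), and it no longer passed without Shh-MB 2 (adjusted *p* = 0.0626) or with a term for *Uty* (-0.26, adjusted *p* = 0.107). *Sf3b1* had 644, 613 and 608 in Shh-MBs, all below the lowest lesion at 755. Its difference was 0.33 (SE 0.0840, adjusted *p* = 0.00853), but it turned to -0.51, -0.16 and -0.042 under centring on the median, quantile normalization and scaling to total signal with the top 3 genes left out, and was 0.17 without passing (adjusted *p* = 0.176) with centring on listed reference genes.

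The other separate groups were those of *Smc1a*, *U2af1* and *Sf3a3*, each lower in every lesion than in every Shh-MB. *Smc1a* had 946, 1108 and 1025 in Shh-MBs, a difference of -0.25 (interval -0.48 to -0.026, adjusted *p* = 0.0535), and passed without *RBS* 1 (0.0266) or without Shh-MB 1 (0.0363). *U2af1* had 2425, 2531 and 2546 (difference -0.21, adjusted *p* = 0.0757). *Sf3a3* had 550.1, 564 and 542 (difference -0.17, adjusted *p* = 0.136). Each of these passed the threshold in some alternatives, and none changed direction in any.

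Cohesin subunits other than *Smc1a* overlapped between *RBS* lesions and Shh-MBs. *Smc3* had 1073, 1398 and 1662 in Shh-MBs (difference 0.11, interval -0.27 to 0.50, adjusted *p* = 0.582). *Rad21* had 4045, 4111 and 3791 (difference -0.039, interval -0.27 to 0.20, adjusted *p* = 0.763). *Stag2* had 542, 580.4 and 594 (difference -0.11, interval -0.34 to 0.12, adjusted *p* = 0.382). For *Fubp1*, with 753, 789 and 961, Shh-MB 3 was well above the other tumors and the difference was -0.089 (interval -0.39 to 0.21, adjusted *p* = 0.580). None of these passed on the deposited scale. Without any 1 sample *Smc3* lay between -0.055 and 0.26 and *Fubp1* between -0.16 and 0.017. *Smc3* turned to -0.73 with centring on the median, to -0.28 with quantile normalization, to -0.26 with the total and to -0.051 with listed reference genes.

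The *Sf3b1* to *Sf3a3* ratio is the same for any single factor per sample, though not for quantile normalization. On the log2 scale it was 0.23, 0.12 and 0.17 in Shh-MBs, below each of the 5 lesions, and the difference was 0.50 (exact permutation *p* = 0.0179, the smallest these group sizes allow, adjusted over 15 tests 0.119). Without any 1 sample it lay between 0.47 and 0.53. Between Shh-MBs and control eyes the ratio differed by -0.12 (exact permutation *p* = 0.114). Of the other ratios, *Stag2* to *Rad21* was -2.87 ± 0.062 (SD, n = 5) for lesions against -2.68 ± 0.13 (SD, n = 4) for control eyes (difference -0.19, exact permutation *p* = 0.0238, adjusted 0.119). These groups overlapped, and leaving out control 4 or *RBS* 1, 3, 4 or 5 ended the unadjusted call (*p* up to 0.0571 by exact permutation).

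**Figure D4:**
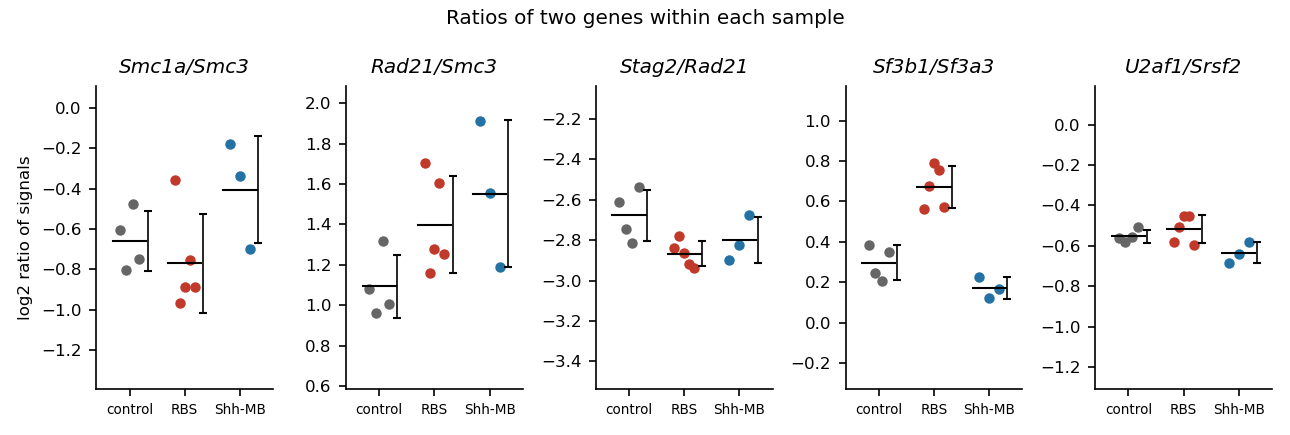
Log2 ratio of the signals of 2 members within each sample, with group means (lines) and SD (bars), on vertical axes that span the same length of 1.5. A ratio's height depends on the probes and only its differences between groups are comparable. For *Sf3b1* over *Sf3a3* the 5 lesions (0.56 to 0.79) lie above the 4 control eyes (0.20 to 0.39) and the 3 Shh-MBs (0.12 to 0.23).

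Between Shh-MBs and control eyes no member passed by limma on the deposited scale (0 of 9 at an adjusted *p* under 0.05, and 0 of 9 at an unadjusted *p* under 0.05), compared with 41% of all genes called, 9.61% higher and 31.4% lower. The methods' test with Benjamini-Hochberg adjustment called 1, *Sf3b1*, and limma called 8 members with centring on the median, 4 with quantile normalization and 3 with the total. Groups did not overlap for *Sf3b1* (difference -0.22, interval -0.44 to 0.0086, adjusted *p* = 0.113) and *U2af1* (-0.13, adjusted *p* = 0.291), that is 2 of 9 members, against 48.2% of all genes. *Smc3* had the largest difference (-0.36, interval -0.79 to 0.068, adjusted *p* = 0.157), and that interval is also the widest. The remaining 6 members lay between -0.10 for *Smc1a* and 0.14 for *Fubp1*. Median differences were -0.092 over the members and -0.22 over all genes. The interval of *Smc1a* reached -0.36, the size of its difference between lesions and control eyes. Those of *U2af1* (down to -0.341, against -0.336) and *Sf3a3* (down to -0.32, against -0.26) reached theirs as well. On the deposited scale that of *Srsf2* (-0.27 to 0.17) did not reach -0.37.

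The scaling moved differences that involve Shh-MBs further than those between lesions and control eyes. Centring each sample on its median shifted the median of all genes by -0.18 between *RBS* lesions and control eyes, by -0.85 between *RBS* lesions and Shh-MBs and by 0.67 between Shh-MBs and control eyes. With it, all 9 members passed as lower in *RBS* lesions than in Shh-MBs, among 500 of 770 genes called, 36.2% of them higher. Of the 9, 8 passed as higher in Shh-MBs than in control eyes, among 450 genes called, 69.1% of them higher. On every scaling tried, *Smc1a*, *Smc3*, *Stag2*, *Sf3a3*, *U2af1* and *Srsf2* had a lower mean in *RBS* lesions than in control eyes, and all members but *Smc3* and *Sf3b1* had a lower mean in lesions than in Shh-MBs.

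**Figure D5:**
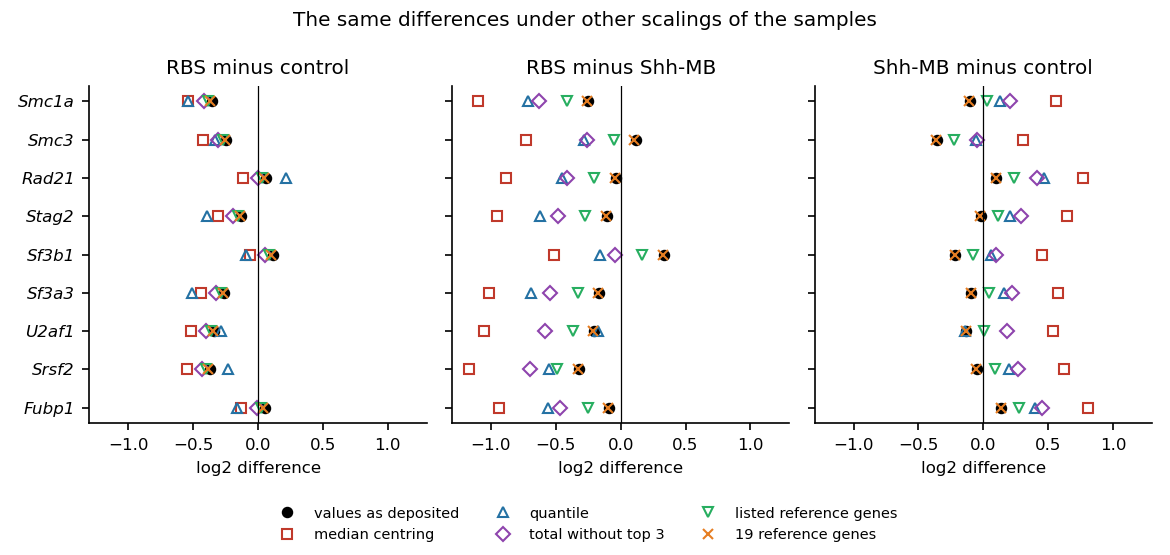
Log2 differences of the 9 genes (horizontal) in the 3 comparisons on the deposited scale and under 5 other scalings of the samples. *Smc1a*, *Sf3a3*, *U2af1* and *Srsf2* stay left of 0 in both comparisons of *RBS* lesions, while between Shh-MBs and control eyes they lie on either side of 0 (*Srsf2* from -0.053 to 0.62).

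Over the 12 samples, the members' profiles were compared with those of all other genes by the root mean square difference of log2 signal, each profile centred on its own mean. A typical gene lay at 0.57 to 0.64 from a member. The nearest pair within the 9 genes was *U2af1* and *Srsf2* (0.067), followed by *U2af1* and *Sf3a3* (0.085) and by *Smc1a* and *Sf3a3* (0.087). The nearest genes from outside were *Gtf2h3* for both *U2af1* (0.101) and *Sf3a3* (0.109), *Hprt* for *Srsf2* (0.116) and *Sin3a*, a corepressor scaffold, for *Smc3* (0.112). *Rad21* was nearest to *Whsc1* (0.081), *Stag2* to the ribosomal protein gene *Rpl19* (0.096), *Sf3b1* to the chromatin remodeler subunit *Pbrm1* (0.078) and *Fubp1* to *Eif2b4* (0.106), a translation initiation factor gene. *Hprt*, *Rpl19* and *Eif2b4* are, like *Sf3a3*, among the 20 reference genes inferred to set the scale, which holds their geometric mean equal in all samples. A small distance between them and members of narrow range is therefore no sign of a shared regulation. These distances describe the 12 samples, which fall into 3 groups, and carry no test.

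Few relatives of these genes were measured. Of 22 other cohesin genes listed, *Smc1b*, which encodes the meiotic partner of *Smc3*, was among the 770 genes and reached at most 7.78, close to the lowest detectable value. Of 32 RNA processing genes listed, 5 were among them, the decapping factor gene *Edc3* and the RNA polymerase II subunit genes *Polr2a*, *Polr2d*, *Polr2h* and *Polr2j*. *Edc3* and *Polr2a* belong to the 20 reference genes inferred to set the scale they were measured on. On the deposited scale, none of the 5 passed between *RBS* lesions and control eyes (differences from -0.092 to 0.17). *Polr2d* was 652 ± 33.9 (SD, n = 5) in lesions against 489 ± 31.4 (SD, n = 3) in Shh-MBs (difference 0.41, adjusted *p* = 0.00517), and *Edc3* was 165 ± 11.8 against 126 ± 25.9 (0.41, adjusted *p* = 0.0439). Both differences are smaller than the shift of -0.85 that centring on the median gives to the median of all genes in this comparison. *Polr2h* was higher in Shh-MBs, at 546 ± 33.9 (SD, n = 3), than in control eyes, at 422 ± 20.7 (SD, n = 4), by 0.37 (adjusted *p* = 0.0195).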

How the data were processed

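RNA of single fresh frozen eyes, lesions and tumors was measured on the nCounter SPRINT Profiler by the authors, who compiled and normalized the counts in nSolver with its Advanced Analysis module. The deposited values used here are a linear, normalized signal. The background setting and the reference genes are not given in the sources used here. The evenly spaced low values have the form of counts after subtraction of a background and multiplication by 1 factor per sample, so whole counts were not recovered and count models were not used. A set of 20 reference genes was inferred from its geometric mean, which was 638 in all 12 samples with a range of 0.000126%. Without *Sf3a3*, the mean of the other 19 ranged by 1.57%. Depth was taken as total signal over the size of 1 count, read from the spacing of low values.

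Log2 of the signal plus 1 was compared between the groups given in the labels by limma (version 3.58.1, R 4.3.3; two-sided, 2 groups at a time, no filter, Benjamini-Hochberg adjustment over 770 genes, threshold 0.05). Ratios of members were compared by exact permutation over samples. Members and lists were chosen with earlier results of these data known. All 9 members were named, with the nearest non-member of each (that of *Smc1a* is not reported here) and the listed cohesin and RNA processing genes on the panel. Alternatives were the authors' Welch test without its permutations, other limma settings, 4 scalings and a filter at a signal of 20. Others were a pseudocount of 5, the replicate number as a block, a term for *Uty* and leaving out each sample. Scaling to 19 reference genes was added after seeing the data. The steps were tested on simulated data. Of the panel symbols, 760 matched the RefSeq table (GRCm38.p6) directly and 10 by an older name. Figures were drawn with matplotlib 3.10.9.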

Additional observations from a re-analysis of the deposited data

How the results depend on the processing

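The authors' Welch test was run without the permutations that their methods name. With step-down Bonferroni adjustment of it, 72 genes passed between *RBS* lesions and control eyes, 80 between *RBS* lesions and Shh-MBs and 36 between Shh-MBs and control eyes. In each of these comparisons 0 members passed. With Benjamini-Hochberg adjustment of the same test, 4 members passed between *RBS* lesions and Shh-MBs and 1 between Shh-MBs and control eyes. Replicate numbers are shared by the groups but did not pair the samples (deviations of same-numbered samples correlated by -0.11, 0.16, 0.19 and -0.15 between *RBS* lesions and control eyes). With the replicate block, 1 member passed between *RBS* lesions and control eyes (*Srsf2*) and 0 between *RBS* lesions and Shh-MBs. Between *RBS* lesions and Shh-MBs, 4 members passed with all 12 samples in the fit, with trend and robust settings, with low genes left out and with centring on listed reference genes, 6 with quantile normalization, 7 with the total without the 3 most abundant genes, 9 with centring on the median (439, 437 and 500 of all genes), 1 with the *Uty* term and 1 to 3 without single samples (1 without Shh-MB 2). Between Shh-MBs and control eyes, 8 members passed with centring on the median, 4 with quantile normalization and 3 with the total (450, 372 and 337 of all genes). These were higher in Shh-MBs, except for 1 of the 4 with quantile normalization, which was lower. With the *Uty* term, 182 genes passed. Of differences past the threshold before or after the change, those that turned between *RBS* lesions and Shh-MBs were *Smc3* (-0.73, median) and *Sf3b1* (-0.51, median; -0.16, quantile; -0.042, total). Between Shh-MBs and control eyes they were *Smc1a* (0.56), *Stag2* (0.65), *Sf3b1* (0.45), *Sf3a3* (0.57), *U2af1* (0.54) and *Srsf2* (0.62) with the median, *Stag2* (0.21) and *Srsf2* (0.20) with quantile normalization and *Stag2* (0.29) with the total. Further turns stayed short of the threshold throughout, as for *Smc3* (0.31) with the median and *Srsf2* (0.27) with the total. The cause of these changes was not tested. Between *RBS* lesions and control eyes no call turned, 3 or 4 members passed without single samples, 6 passed with centring on the median (all lower) and 6 with quantile normalization (5 lower and *Rad21* higher), and *Srsf2* missed the threshold with quantile normalization (-0.23). Group sizes of 3 to 5 limit the precision, as does counting error for *Sf3a3* and *Stag2*, the members with the least signal.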
